A study of Mus musculus with 8 samples.

Results

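The genes described here code for the protein-folding machinery of the endoplasmic reticulum (ER) and for the signalling that adjusts it, the unfolded protein response. The 36 members are a list of gene names, taken by name from the deposited table of liver gene expression, in which 17294 features had a value above 0. All 36 were found, and all 36 entered the test, which required 1 FPKM or more in 2 or more of the 8 libraries. By role they fall into 15 ER chaperones and oxidoreductases, 7 genes of ER-associated degradation, 4 genes for the stress sensors and XBP1, 7 genes of the PERK-ATF4 arm and 3 genes of the translocon.

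The samples were whole livers of male C57Bl/6J mice, sequenced as mRNA, with 2 biological replicates in each of 4 groups. Wild-type mice and mice with the ApoE-Cyp7a1 transgene, which the submitters describe as specific to the liver, were either left untreated or injected each day for 7 days with LPS at 1.5 mg per kg. LPS, or lipopolysaccharide, is a component of the bacterial cell wall that provokes inflammation, and Cyp7a1 codes for the enzyme that sets the pace of bile acid synthesis. No age, vehicle injection or hour of liver removal is stated in the labels, and the species of the transgene's coding sequence is not given in the sources used here.

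Secreted and membrane proteins enter the ER through the translocon and fold there with the help of chaperones and of enzymes that form disulfide bonds. Proteins that fail to fold are moved back to the cytosol and degraded. The sensors IRE1 (coded by Ern1), ATF6 and PERK (coded by Eif2ak3) respond to a build-up of unfolded protein: IRE1 splices the XBP1 messenger and ATF6 is cleaved to a transcription factor, which together raise chaperones and degradation factors, whereas PERK slows translation and raises ATF4. Hepatocytes secrete most plasma proteins and carry a dense ER. ATF4 also responds to kinases other than PERK, among them one activated by a lack of amino acids.

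ATF6 and XBP1 act on the ER stress element, a promoter sequence of CCAAT and CCACG separated by 9 bases. Its matches are shown because many of the members that moved with LPS hold one, so the choice was made with those changes known. In the RefSeq promoter windows of build GRCm38.p6, which run from 250 bases before to 50 bases after a start site, 31 of the 36 members had a window (Hyou1, Manf, Derl1, Atf6 and Sec61a1 did not). The element, searched on both strands, was present in 39 of 32851 windows (0.119%) and in those of 9 of the 31 members. Each match is printed on the strand on which it reads CCAAT to CCACG, with the element's 19 bases in capitals and 5 bases on each side, and for Hsp90b1, which holds a pair, the match farther from the start is given here.
Hspa5 (chr2:34772020-34772048, + strand): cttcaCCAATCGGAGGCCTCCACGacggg
Hsp90b1 (chr10:86705633-86705661, - strand): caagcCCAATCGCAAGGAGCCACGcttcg
Calr (chr8:84847070-84847098, + strand): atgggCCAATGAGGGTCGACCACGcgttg
Canx (chr11:50325795-50325823, - strand): attgaCCAATCACCACGCTCCACGaagaa
Creld2 (chr15:88819515-88819543, - strand): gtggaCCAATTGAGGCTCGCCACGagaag
Pdia6 (chr12:17266486-17266514, + strand): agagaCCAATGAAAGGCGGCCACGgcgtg
Dnajc3 (chr14:118937822-118937850, + strand): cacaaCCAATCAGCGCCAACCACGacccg
Syvn1 (chr19:6046527-6046555, + strand): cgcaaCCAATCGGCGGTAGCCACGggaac
Derl3 (chr10:75893237-75893265, - strand): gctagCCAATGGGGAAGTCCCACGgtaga

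The matches lay between 25 bases (Syvn1) and 193 bases (Hsp90b1) before the RefSeq start. The GENCODE annotation starts the Hspa5 gene farther upstream, at chr2:34771970, so its match lies inside the annotated gene there. The pair in the Hsp90b1 promoter lies 193 and 88 bases before the start and in opposite orientations, as shown in the 144 bases of chr10:86705523-86705666 on the - strand, the strand of the gene, with both elements in capitals and the second one reading CCACG to CCAAT as its reverse complement.
Hsp90b1 promoter: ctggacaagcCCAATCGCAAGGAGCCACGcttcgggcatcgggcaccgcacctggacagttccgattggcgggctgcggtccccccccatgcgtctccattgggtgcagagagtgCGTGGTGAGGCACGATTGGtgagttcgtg

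Other response elements were searched in the same windows on both strands. The second ER stress element, ATTGG and CCACG separated by 1 base, was present in 12 windows (0.0365%), among them those of Herpud1 and Dnajb11. The core of the amino acid response element to which ATF4 binds, TGATGNAA, was present in 1304 windows (3.97%), among them those of Atf3, Chac1, Trib3, Asns and Herpud1. The windows of Herpud1, a degradation gene, thus held both kinds, and those of the PERK-ATF4 genes Chac1, Atf3 and Asns held the core alone, printed here with the matched letters in capitals and 5 bases on each side. The UPR element TGACGTGG was present in 222 windows (0.676%) and in 0 of the 31 members' windows. A match describes letters and is no measure of binding, and in none of these windows can a missing match be read as the absence of a site.
Herpud1, second ER stress element (chr8:94386372-94386392, + strand): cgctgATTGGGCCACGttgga
Herpud1, response element core (chr8:94386312-94386329, - strand): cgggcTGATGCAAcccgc
Chac1, response element core (chr2:119351044-119351061, - strand): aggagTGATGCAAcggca
Atf3, response element core (chr1:191183431-191183448, + strand): cttggTGATGCAAgtgcg
Asns, response element core (chr6:7693220-7693237, - strand): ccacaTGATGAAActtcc

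Levels are given in FPKM, a fragment density scaled to transcript length and to the mapped fragments of a library, which can be compared between genes. Over the 8 libraries the members ranged from a mean of 448 FPKM for P4hb, the beta subunit of prolyl hydroxylase and a disulfide isomerase, to 1.61 FPKM for the transcription factor gene Atf3. After P4hb came Herpud1 at 254 FPKM, Calr at 238 FPKM, Hsp90b1 at 219.6 FPKM, Hspa5 at 211 FPKM and Pdia3 at 116 FPKM. The low end held Ddit3 at 4.59 FPKM, Eif2ak3 at 3.83 FPKM, Derl3 at 1.97 FPKM and Chac1 at 1.94 FPKM. The 5 highest means were those of 4 chaperones and 1 degradation gene, and the 2 lowest those of PERK-ATF4 genes.

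**Figure D1:**
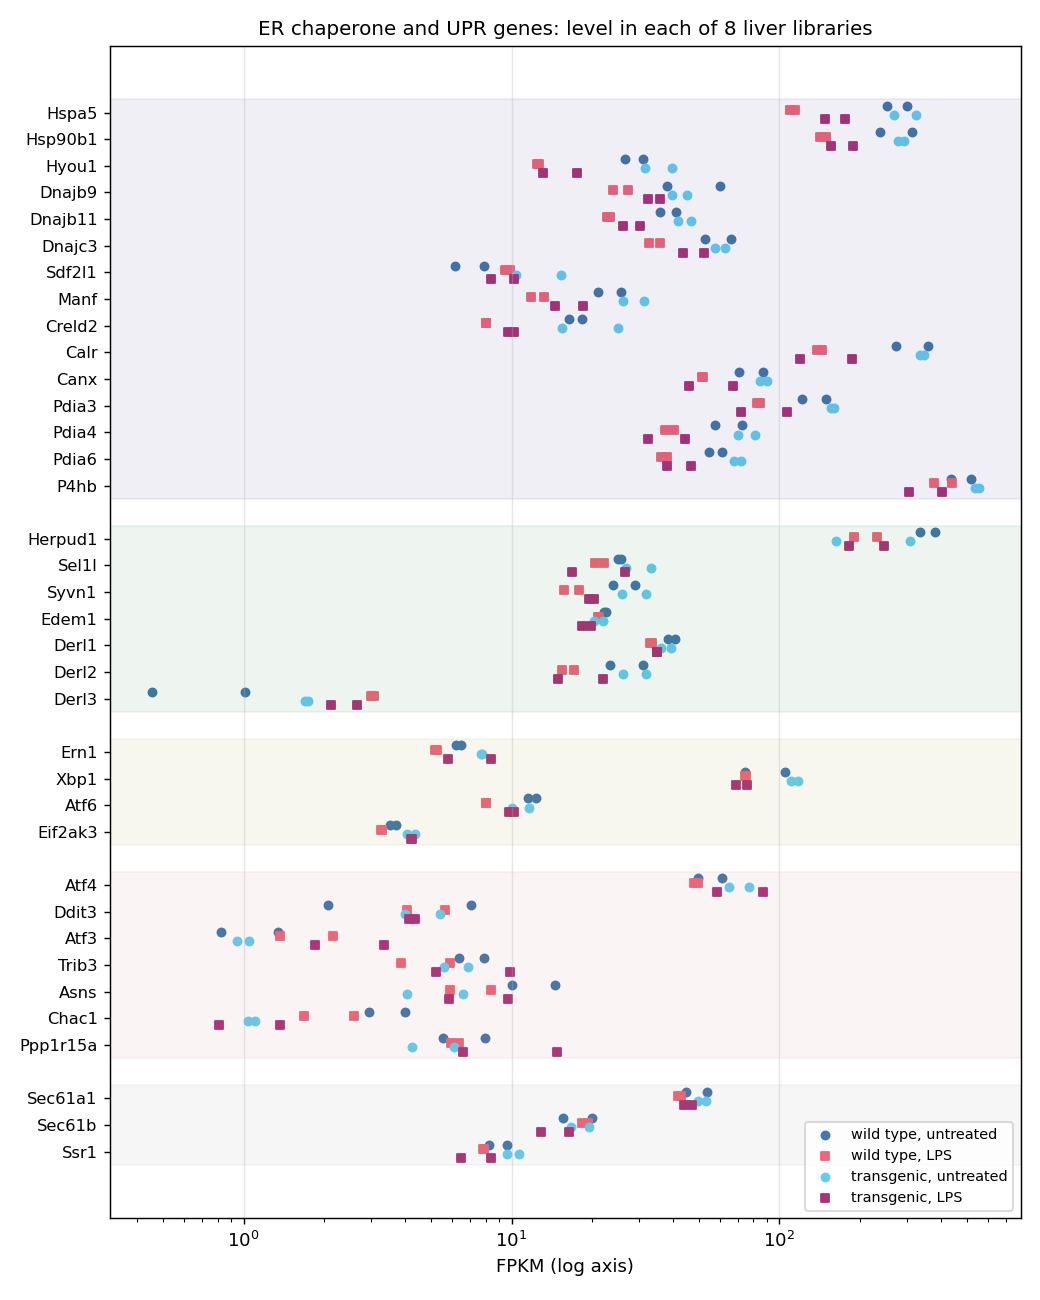
Level of each of the 36 genes in FPKM on a log axis, 1 point per library, coloured by group and ordered by role. Most chaperones show the LPS libraries to the left of the untreated ones, whereas the points of the PERK-ATF4 genes mix.

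Facts of the whole series that touch these values are few. The FPKM of a library summed to 500765 to 580051 without LPS and to 406668 to 469644 with LPS, and over the 11463 features tested the median change with LPS was -0.05 in wild-type and -0.04 in transgenic mice on the log2(FPKM + 1) scale. Scaling every library to the same sum moved these medians to 0.18 and 0.16, so changes are best read relative to the median of all features. The library depth is unknown, because the table holds no counts. Cyp7a1 was at 64.7 to 78.5 FPKM in the 4 transgenic libraries and at 19.9 to 49.1 FPKM in the 4 wild-type ones, without overlap.

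With LPS the ER chaperones were lower in both genotypes. The summed level of the 15 chaperones and oxidoreductases was 1792 and 2019.8 FPKM in the untreated wild-type libraries and 1174 and 1119 FPKM with LPS. In transgenic mice it was 2136 and 2071 FPKM untreated and 1063 and 1397 FPKM with LPS. All 4 LPS libraries were thus below all 4 untreated ones. In whole liver, fewer cells of a type and less RNA per cell cannot be told apart.

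In wild-type mice 13 of the 36 members fell and 1 rose at an adjusted p under 0.05 (limma, Benjamini-Hochberg over the 11463 features), with a median change of -0.52. Of all features, 5.41% were called lower and 16.2% higher. The count of members called lower was 2 without either wild-type LPS library, 6 without replicate 2 of untreated wild type and 8 without either untreated transgenic library, in refits with 1 library left out. Scaling to the same sum gave 6 lower and 2 higher. The calls of Hspa5, Hyou1 and Derl3 were kept in all 8 refits.

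In transgenic mice 11 members fell and 1 rose, with a median change of -0.36, against 10.5% of all features called lower and 16.0% higher. The count called lower was 1 without replicate 1 and 3 without replicate 2 of untreated transgenic mice, 2 without replicate 1 of transgenic mice with LPS, and 7 without either wild-type LPS library, which enters through the shared estimate of the spread. Hyou1 kept its call in all 8 refits. The count was 6 under quantile normalization.

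Averaged over the genotypes, 17 members fell and 2 rose, with a median change of -0.39, where 15.8% of all features were called lower and 20.6% higher. Without replicate 1 of wild type with LPS, 11 were lower, and with libraries scaled to the same sum 10 were. Lower in both genotypes separately were 9 members. That is 69.2% of the 13 called in wild type and 81.8% of the 11 called in transgenic mice. The same shares over all features were not computed, so these do not set the members apart. In 16 members all 4 LPS libraries were below all 4 untreated ones, against 16.8% of all features tested. These were 13 of the 15 chaperones, all but Sdf2l1 and P4hb, and 3 of the 7 degradation genes (Syvn1, Derl1 and Derl2). Neither Xbp1 nor any sensor, PERK-ATF4 or translocon gene was among them.

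**Figure D2:**
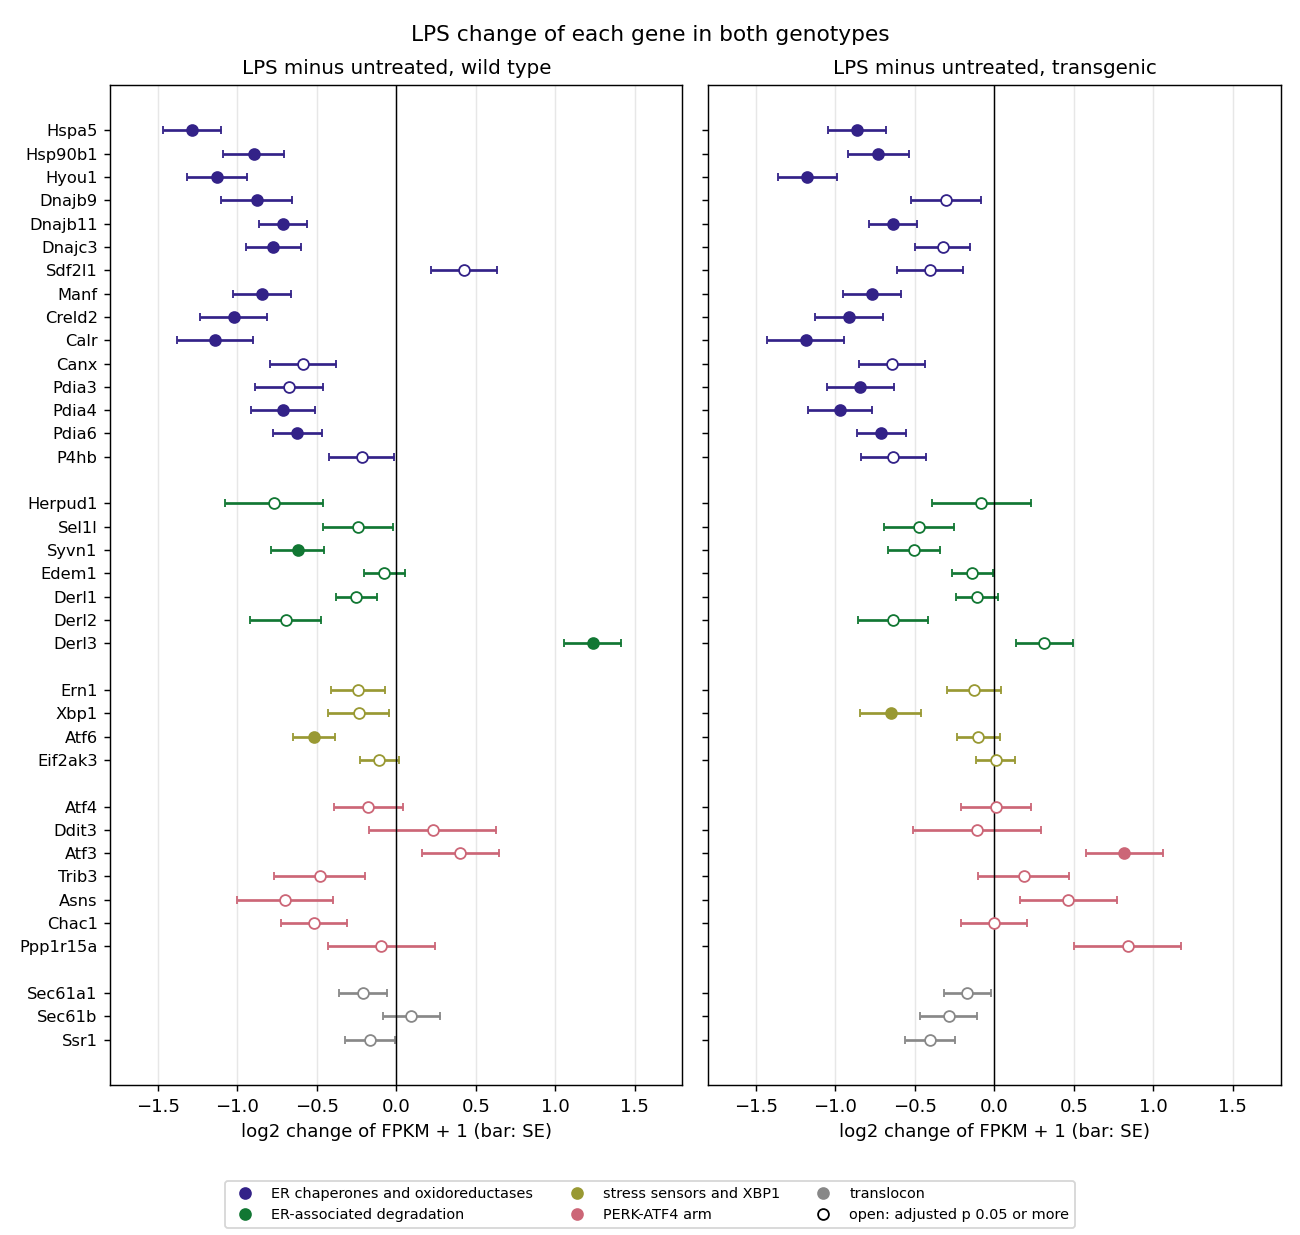
Log2 change with LPS for each gene in wild-type and in transgenic mice, with bars for the SE and filled points for an adjusted p under 0.05 in limma. The chaperones lie to the left of 0 in both genotypes apart from Sdf2l1 in wild type, and Derl3 and Atf3 are the genes called higher.

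In the average over genotypes the largest falls among the 36 members were those of Calr, Hyou1 and Hspa5. Hspa5 (BiP, the ER member of the Hsp70 family, at chr2:34771970-34777547 on the + strand) was at 252 and 301 FPKM in untreated wild-type livers and at 114 and 109.8 FPKM with LPS. In transgenic livers it was at 323 and 268 FPKM untreated and at 148 and 176 FPKM with LPS. The groups did not overlap, and the mean with LPS was 40.6% of the untreated mean in wild type and 54.8% in transgenic mice. On the log2 scale it changed by -1.29 ± 0.18 in wild type (SE, adjusted p = 0.00209) and by -0.86 ± 0.18 with the transgene (adjusted p = 0.0129).

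Hyou1 codes for an Hsp110-like chaperone that exchanges nucleotide on BiP. Its level was 30.9 and 26.5 FPKM in untreated and 12.4 and 12.6 FPKM in LPS-treated wild-type livers, and 39.9 and 31.6 FPKM in untreated and 13.1 and 17.5 FPKM in LPS-treated transgenic livers. The change was alike in size in both, at -1.13 ± 0.19 (adjusted p = 0.00431) and -1.18 ± 0.19 (adjusted p = 0.0041), and the LPS mean was 43.7% and 42.8% of the untreated one. Hsp90b1 (GRP94, the ER member of the Hsp90 family, at chr10:86690209-86705509 on the - strand) was at 237 and 313 FPKM untreated and at 142 and 149.8 FPKM with LPS in wild type. In transgenic mice the values were 293 and 277 FPKM untreated and 156 and 189 FPKM with LPS. Wild-type mice showed a change of -0.90 (adjusted p = 0.0133) and transgenic mice one of -0.73 (adjusted p = 0.0284).

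Calr codes for calreticulin, the soluble lectin chaperone of newly made glycoproteins, and Canx for its membrane-bound relative calnexin. Calr was at 273 and 359 FPKM in untreated and 139 and 144 FPKM in LPS-treated wild-type livers. In transgenic livers it was at 334 and 347 FPKM untreated and at 119 and 186 FPKM with LPS. The LPS mean was 44.7% of the untreated one in wild type and 44.8% in transgenic mice, with changes of -1.14 ± 0.24 (adjusted p = 0.0127) and -1.19 ± 0.24 (adjusted p = 0.0107). Canx, at 70.5 to 90.1 FPKM untreated and 45.8 to 66.9 FPKM with LPS, did not pass in either genotype (-0.59, adjusted p = 0.0838, and -0.64, adjusted p = 0.0549) but fell in the average (-0.62 ± 0.15, adjusted p = 0.0138).

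Cofactors of BiP moved less evenly. Dnajb11 (ERdj3), a J-domain partner of BiP, fell by 0.71 in wild type and by 0.64 in transgenic mice. Dnajb9 (ERdj4) was at 38.0 and 60.2 FPKM in untreated and 23.9 and 27.3 FPKM in LPS-treated wild-type livers, a change of -0.88 ± 0.22 (adjusted p = 0.0278). That call was kept in 3 of 8 refits with a library left out, and the change was -0.55 without replicate 2 of untreated wild type (adjusted p = 0.0752). It was also lost with libraries scaled to the same sum (-0.64), under quantile normalization (-0.75) and with only the wild-type groups in the fit. In transgenic livers it was at 39.7 and 45.1 FPKM untreated and at 32.4 and 35.8 FPKM with LPS, a change of -0.30 ± 0.22 that did not pass (adjusted p = 0.348). Dnajc3 (p58IPK), another J-domain partner of BiP, likewise fell in wild type (-0.77 ± 0.17, adjusted p = 0.0165) and did not pass in transgenic mice (-0.32 ± 0.17, adjusted p = 0.205). Neither gene passed the test of the difference between the genotypes' changes, given below for all members. The secreted ER stress proteins Manf and Creld2 fell in both genotypes, Manf by 0.84 and 0.77 and Creld2 by 1.02 and 0.91. Creld2 was at 8.03 and 8.04 FPKM in the wild-type LPS libraries, against 18.4 and 16.4 FPKM untreated.

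Sdf2l1, a stabiliser of the BiP cycle, was the exception among the chaperones. It was at 7.88 and 6.13 FPKM in untreated wild-type livers and at 9.89 and 9.48 FPKM with LPS, so that both LPS values were higher. In transgenic livers it was at 15.3 and 10.4 FPKM untreated and at 8.41 and 10.2 FPKM with LPS, so that both were lower. Neither change passed (0.43, adjusted p = 0.184, and -0.40, adjusted p = 0.189), but with libraries scaled to the same sum the one in wild type was 0.70 and did (adjusted p = 0.0328).

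Protein disulfide isomerases form and rearrange disulfide bonds, and of the 4 members of this kind Pdia4 and Pdia6 fell in both genotypes, Pdia3 in 1 and P4hb in none. Pdia4 was at 57.4 and 72.5 FPKM untreated and 40.5 and 37.4 FPKM with LPS in wild type, and at 81.1 and 70.3 FPKM untreated and 32.4 and 44.6 FPKM with LPS in transgenic mice. The change was -0.71 for wild type (adjusted p = 0.0415) and -0.97 for transgenic mice (adjusted p = 0.0119). Pdia6 fell by 0.62 and by 0.71. Pdia3 (ERp57), which works with calreticulin and calnexin, fell by 0.84 in transgenic mice (adjusted p = 0.0245), and its change of -0.68 in wild type missed the threshold (adjusted p = 0.0589). P4hb, the most abundant member, was at 520.4 and 436 FPKM untreated and 441 and 379 FPKM with LPS in wild type, where the values overlapped. In transgenic mice it was at 538 and 557 FPKM untreated and at 304 and 406 FPKM with LPS. It passed in no LPS comparison (-0.22 with adjusted p = 0.482, -0.64 with adjusted p = 0.056, and -0.43 with adjusted p = 0.0528 in the average).

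Of the 15 chaperones and oxidoreductases, 11 fell in wild type, 10 in transgenic mice and 13 in the average. Of all features, 5.41%, 10.5% and 15.8% fell in these comparisons. The median changes of the 15 genes were -0.77, -0.73 and -0.76. With libraries scaled to the same sum the medians were -0.53, -0.51 and -0.53, beside the shift of all features given above. Markers of other tissue and cell types moved with LPS in the same libraries. Signal of exocrine pancreas, a tissue that borders the liver and is rich in ER, summed over 12 genes to 1300.2 and 69.8 FPKM in untreated wild type, 171 and 51.2 FPKM in wild type with LPS, 4900.2 and 1000.5 FPKM in untreated transgenic mice and 120.5 and 2.79 FPKM in transgenic mice with LPS. All 12 of these genes passed as lower in transgenic mice, and their median change in wild type, where none passed, was -1.54. In each untreated group replicate 1 had more pancreas signal than replicate 2. Of the 15 chaperones, 4 were higher in that library in untreated wild type (Hyou1, Sdf2l1, Creld2 and P4hb) and 9 in untreated transgenic mice, Hspa5 among them. Without replicate 1 of untreated wild type the median chaperone change in wild type was -0.93, and without replicate 2 it was -0.62. Without replicate 1 of untreated transgenic mice the median in transgenic mice was -0.67, and without replicate 2 it was -0.77.

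Of 10 hepatocyte markers with a value of their own, 1 rose and 1 fell in wild type, and 2 rose and 1 fell in transgenic mice. In the average over genotypes 1 rose and 3 fell. The median changes of these markers were -0.54, -0.17 and -0.40, with a negative sign for 9, 7 and 8 of the 10. Their summed level was 27575 to 36703 FPKM in untreated and 27752 to 27986 FPKM in LPS-treated wild type, and 23624 to 28595 FPKM in untreated and 24953 to 27501 FPKM in LPS-treated transgenic mice, and Alb is listed at 0 in all libraries. Macrophage markers (7 of 8 higher in each genotype) summed to 75.3 to 148 FPKM without LPS and 990.1 to 1185 FPKM with LPS. Neutrophil markers (7 of 7 higher) summed to 3.88 to 8.67 FPKM and 179 to 356 FPKM, stellate and matrix markers (7 of 8 higher) to 158 to 189.7 FPKM and 366 to 497 FPKM, and endothelial markers (6 of 7 higher) to 99.5 to 120.0 FPKM and 252 to 277 FPKM. The part of these cell types in the chaperone changes was not tested.

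**Figure D3:**
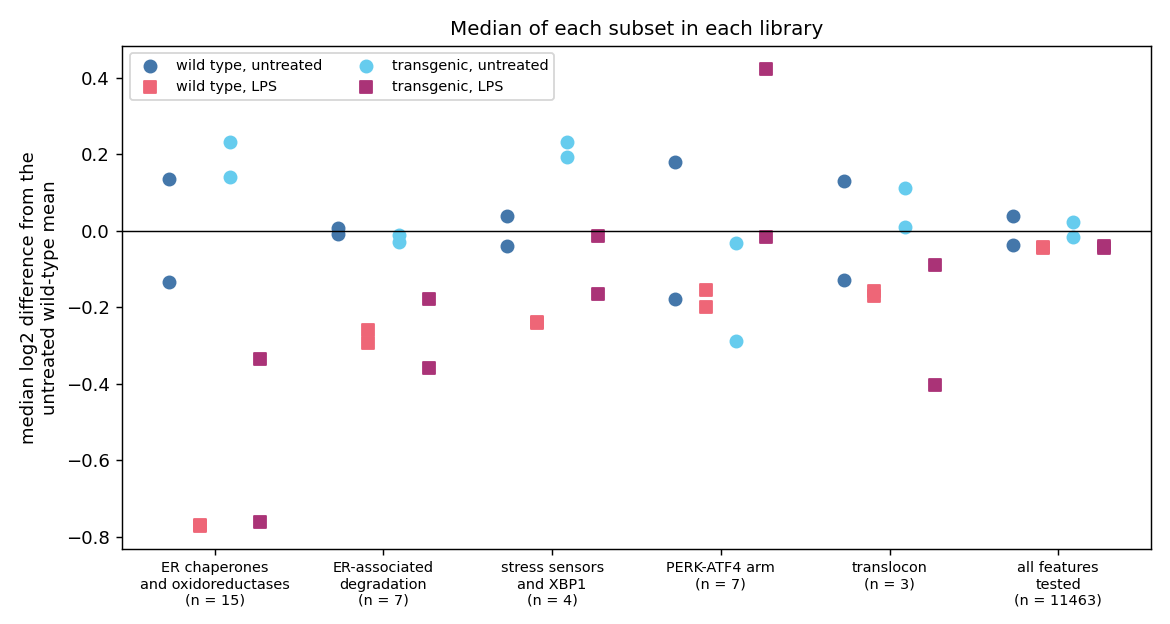
Median log2 level of each group of genes by library, relative to the mean of untreated wild type, 1 point per library. The chaperones sit between -0.13 and 0.23 in the untreated libraries and between -0.77 and -0.34 with LPS, and the PERK-ATF4 genes between -0.29 and 0.18 untreated and between -0.20 and 0.42 with LPS.

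Of the 7 genes of ER-associated degradation, 1 fell and 1 rose in wild type, 0 passed in transgenic mice, and 2 fell and 1 rose in the average, with medians of -0.25, -0.14 and -0.36. Of all features 5.41%, 10.5% and 15.8% were lower, and with 7 genes these counts do not set the list apart from that background. Of the 15 chaperones 11, 10 and 13 fell, with medians of -0.77, -0.73 and -0.76, and the difference from the 7 degradation genes was not tested. The sign was negative for 6 of the 7 in each of these comparisons, all but Derl3. In transgenic mice 2 of them, Syvn1 and Derl2, had an unadjusted p under 0.05 in limma, as did 4534 of the 11463 features tested. That count does not set the 7 genes apart from all features either. Syvn1 (HRD1), the ubiquitin ligase at the centre of the pathway, was at 29.0 and 23.8 FPKM in untreated and 15.7 and 17.8 FPKM in LPS-treated wild-type livers, and at 31.7 and 25.9 FPKM and then 20.3 and 19.4 FPKM in transgenic livers. It fell in wild type (-0.62 ± 0.17, adjusted p = 0.0342) and in the average (-0.56, adjusted p = 0.0079), and reached adjusted p = 0.0591 in transgenic mice (-0.51). Derl2, a membrane component of the exit channel, fell in the average (-0.67, adjusted p = 0.0133), and its changes of -0.70 and -0.64 in the separate genotypes did not pass (adjusted p = 0.0621 and 0.0703).

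Derl3, a Derlin relative that is abundant in secretory cells, rose. It was at 0.454 and 1.02 FPKM in untreated and at 3.07 and 2.99 FPKM in LPS-treated wild-type livers, and at 1.70 and 1.73 FPKM in untreated and 2.65 and 2.13 FPKM in LPS-treated transgenic livers. All 4 LPS values were above all 4 untreated ones. In wild type it changed by 1.24 ± 0.18 (adjusted p = 0.00222), whereas its change of 0.31 ± 0.18 in transgenic mice did not pass (adjusted p = 0.232). Markers of B cells and plasma cells rose in the same libraries, 7 of 8 tested in each genotype, from a sum of 57.8 to 79.8 FPKM without LPS to 129 to 163 FPKM with LPS. Most of that sum was Sdc1 in every library. In wild type Sdc1 made up 76.5 and 66.9 FPKM of the 79.2 and 69.1 FPKM untreated, and 95.3 and 94.7 FPKM of the 150 and 163 FPKM with LPS. Of the plasma cell genes, Mzb1 was at 0.577 and 0.391 FPKM in untreated and at 11.3 and 14.0 FPKM in LPS-treated wild-type livers. In transgenic livers Mzb1 was at 3.43 and 0.470 FPKM untreated and at 21.5 and 9.48 FPKM with LPS. Tnfrsf17 was listed at 0 in both untreated groups. The part of these cells in the Derl3 level was not tested.

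Herpud1, which brings the degradation complex together, was the second most abundant member. It was at 382 and 334 FPKM in untreated and 189 and 230.5 FPKM in LPS-treated wild-type livers, without overlap (-0.77 ± 0.31, adjusted p = 0.117). In untreated transgenic livers it was at 307 and 163 FPKM, a range that took in both LPS values of 183 and 245 FPKM (-0.08, adjusted p = 0.876). Sel1l, Edem1 and Derl1, which are the partner of Syvn1, a mannosidase-like factor and another Derlin, had changes of -0.36, -0.11 and -0.18 in the average and did not pass. Although Derl1 did not pass, its values separated, at 36.2 to 40.8 FPKM untreated and 32.9 to 34.9 FPKM with LPS.

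Among the sensors and Xbp1 the changes were small and differed between genotypes in which gene passed. Xbp1, the transcription factor spliced by IRE1, was at 105 and 74.1 FPKM in untreated and 75.3 and 74.3 FPKM in LPS-treated wild-type livers, where the values overlapped (-0.24, adjusted p = 0.409). In transgenic livers it was at 111 and 117 FPKM untreated and 68.6 and 76.0 FPKM with LPS, without overlap (-0.65 ± 0.19, adjusted p = 0.0409). FPKM per gene do not tell spliced from unspliced Xbp1. Atf6 showed the opposite order, with 12.4 and 11.5 FPKM untreated and 8.04 and 8.01 FPKM with LPS in wild type (-0.52 ± 0.13, adjusted p = 0.0286), and 11.6 and 10.03 FPKM untreated and 10.2 and 9.78 FPKM with LPS in transgenic mice (-0.10, adjusted p = 0.615).

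Both genes fell in the average, Xbp1 by 0.44 (adjusted p = 0.0358) and Atf6 by 0.31 (adjusted p = 0.0354). These calls were kept in 3 of 8 refits with a library left out for Xbp1 and in 2 of 8 for Atf6. Both were lost with libraries scaled to the same sum (-0.21 and -0.10) and with median-of-ratios size factors (-0.35 and -0.23), and that of Xbp1 also under quantile normalization (-0.17). Both calls within a genotype rest on several libraries: Xbp1 in transgenic mice lost its call without any 1 of the 4 transgenic libraries (adjusted p from 0.054 to 0.189) or of the wild-type LPS libraries (adjusted p = 0.087), and Atf6 in wild type lost it without either LPS library of wild type (adjusted p of 0.174 and 0.168) and, narrowly, without the first untreated wild-type library or either untreated transgenic one (adjusted p from 0.051 to 0.054). Ern1 and Eif2ak3, the genes of IRE1 and PERK, were at 5.19 to 8.39 FPKM and 3.26 to 4.37 FPKM over the 8 libraries, with average changes of -0.18 and -0.05 that did not pass.

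Of the 7 genes of the PERK-ATF4 arm, 0 passed in wild type, and 1 rose in transgenic mice and in the average. These counts are near the background, since 5.41%, 10.5% and 15.8% of all features were lower and 16.2%, 16.0% and 20.6% higher. In wild type 1 of the 7, Chac1, had an unadjusted p under 0.05 in limma, as did 4097 of the 11463 features tested. The medians of the 7 genes were -0.18, 0.18 and -0.08, beside -0.77, -0.73 and -0.76 for the chaperones, a difference that was not tested. Atf4, the transcription factor gene, was at 61.3 and 49.8 FPKM in untreated and 48.0 and 49.6 FPKM in LPS-treated wild-type livers, and at 77.1 and 65.0 FPKM in untreated and 87.0 and 58.3 FPKM in LPS-treated transgenic livers. The values overlapped in transgenic mice, and the average change was -0.08 (adjusted p = 0.7). ATF4 is controlled largely through translation, which these data do not measure. Ddit3 (CHOP), a transcription factor linked to cell death under ER stress, was at 7.05 and 2.06 FPKM in untreated and 5.65 and 4.08 FPKM in LPS-treated wild-type livers, and at 3.99 to 5.40 FPKM in the 4 transgenic libraries, where untreated and LPS values overlapped as well.

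Atf3, an immediate early and stress-induced transcription factor, was the member that rose in this arm. It was at 1.34 and 0.826 FPKM in untreated and 2.15 and 1.36 FPKM in LPS-treated wild-type livers, and at 1.05 and 0.944 FPKM in untreated and 3.34 and 1.84 FPKM in LPS-treated transgenic livers. All 4 LPS values were above all 4 untreated ones, by little in replicate 2 of wild type. The change was 0.82 ± 0.24 in transgenic mice (adjusted p = 0.0428), 0.40 in wild type (adjusted p = 0.273) and 0.61 in the average (adjusted p = 0.0272). Without replicate 1 of transgenic mice with LPS the change in transgenic mice was 0.51 and did not pass (adjusted p = 0.216), and the call was also lost without either untreated transgenic library (adjusted p of 0.133 and 0.168) and without either wild-type LPS library (adjusted p = 0.057).

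Ppp1r15a (GADD34), which directs the phosphatase that ends the PERK signal, was at 14.7 FPKM in that same replicate 1 and at 4.27 to 7.96 FPKM in the other 7 libraries, with 6.58 FPKM in replicate 2 of its group (0.84, adjusted p = 0.106 in transgenic mice). Atf4 and Trib3 were also highest in that library, at 87.0 and 9.83 FPKM. A list of 10 immediate early genes, which react quickly to handling and stimuli, summed to 396 FPKM there, to 161 FPKM in replicate 2 of the group and to 122 to 300.4 FPKM in the other 6 libraries. The part of this library's state in the rise of Atf3 was not tested. Leaving the library out, as given above, left 1 library in its group and cannot tell its state from other differences between livers.

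Asns and Chac1 are classic ATF4 targets, for asparagine synthesis and glutathione breakdown. Asns was at 14.5 and 10.01 FPKM in untreated and 8.38 and 5.89 FPKM in LPS-treated wild-type livers, lower in both LPS livers (-0.70, adjusted p = 0.144). In transgenic livers it was at 4.09 and 6.58 FPKM untreated and 5.84 and 9.73 FPKM with LPS (0.46, adjusted p = 0.296), so that the signs were opposite. Chac1 was at 3.99 and 2.94 FPKM in untreated and 1.68 and 2.58 FPKM in LPS-treated wild-type livers, and at 0.812 to 1.36 FPKM in the 4 transgenic libraries, below all 4 wild-type ones. Its average change of -0.26 did not pass, but under quantile normalization it was -0.57 and did (adjusted p = 0.0225). Trib3, a pseudokinase induced by ATF4 and CHOP, was at 3.86 to 9.83 FPKM over the 8 libraries, with an average change of -0.15 (adjusted p = 0.593).

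**Figure D4:**
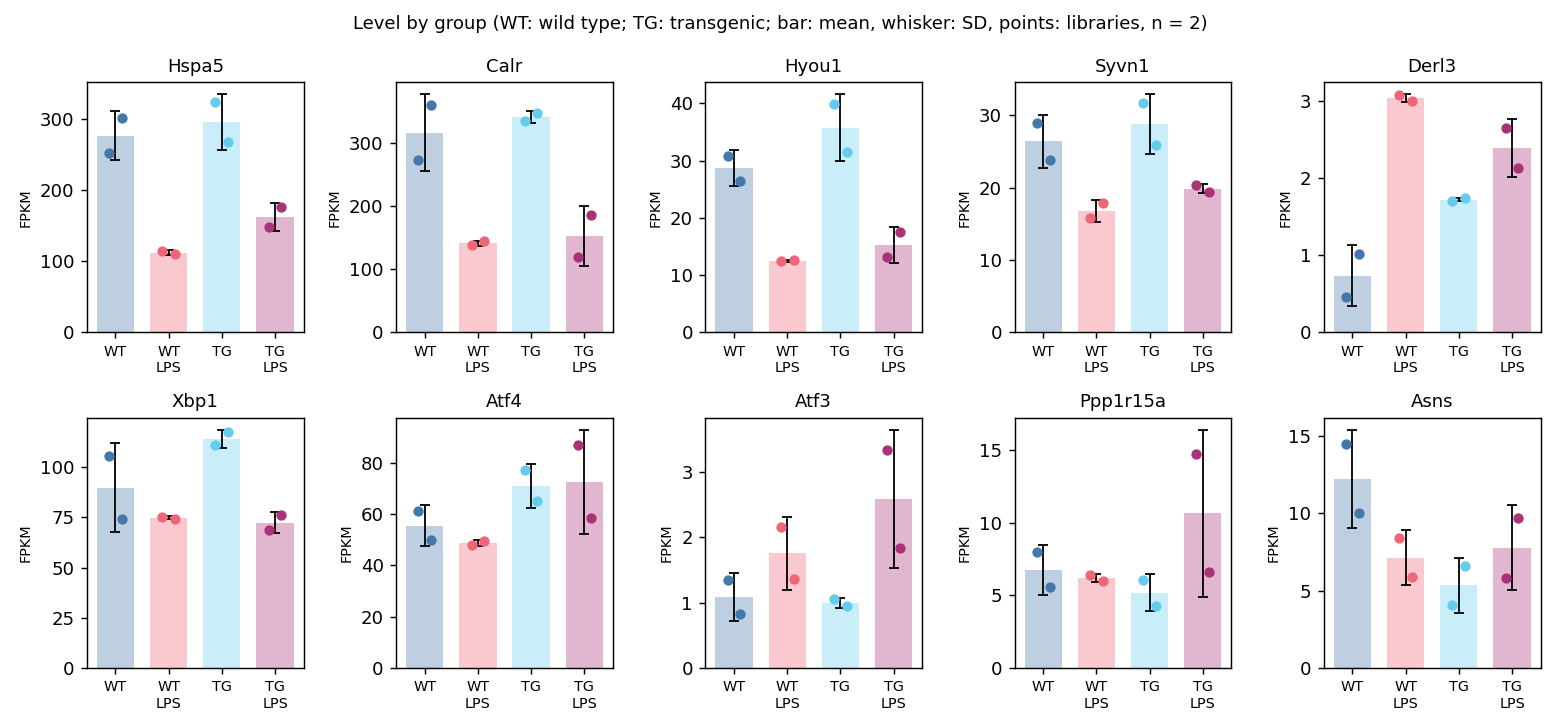
FPKM of 10 genes (chaperone, degradation and PERK-ATF4 genes and Xbp1) by group, with 1 point per library, bars for the group mean and whiskers for the SD of 2 libraries. Hspa5 and Calr separate untreated from LPS-treated livers in both genotypes, and the points of Atf4 overlap.

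The translocon genes, through which proteins enter the ER, did not pass in any LPS comparison. Sec61a1, the channel itself, was at 44.8 to 53.8 FPKM untreated and 41.7 to 47.0 FPKM with LPS. The average changes were -0.19 for Sec61a1, -0.10 for Sec61b and -0.28 for Ssr1, a subunit of the associated TRAP complex, with a median of -0.19. In transgenic mice 1 of the 3, Ssr1, had an unadjusted p under 0.05 in limma, as did 4534 of the 11463 features tested.

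The transgene was then compared with wild type, and the 2 LPS changes with each other. In untreated mice 0 of the 36 members passed between genotypes, where 0.0611% of all features did, and 4 members and 631 of the 11463 features had an unadjusted p under 0.05 in limma. These were Chac1 (-1.10 ± 0.21, adjusted p = 0.241), Asns (-1.07 ± 0.30, adjusted p = 0.602), Sdf2l1 (0.78 ± 0.21, adjusted p = 0.537) and Derl3 (0.67 ± 0.18, adjusted p = 0.537), with transgenic minus wild-type values. Under LPS 0 members and 0.0% of all features passed, and 5 members and 1402 features had an unadjusted p under 0.05, a like share. The 5 were Chac1, Dnajc3, Atf4, Eif2ak3 and Hspa5 (0.52 ± 0.18, adjusted p = 0.365 for Hspa5), of which Hspa5 was at 148 and 176 FPKM in transgenic and 114 and 109.8 FPKM in wild-type livers. The difference between the LPS changes, transgenic minus wild type, passed for 0 members and for 0.00872% of all features, and 3 members and 1189 features had an unadjusted p under 0.05. The members were Derl3 (-0.92 ± 0.25, adjusted p = 0.418), Sdf2l1 (-0.83 ± 0.29, adjusted p = 0.437) and Asns (1.16 ± 0.43, adjusted p = 0.44). The calls that Dnajb9, Dnajc3, Syvn1, Pdia3, Atf6, Xbp1, Derl3 and Atf3 had in 1 genotype are therefore not shown to differ between genotypes.

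Read by promoter, the 9 members with the ER stress element held 8 that fell and 1 that rose in the average over genotypes, with a median change of -0.67, where 15.8% of all features fell. The one that rose was Derl3. The 22 members with a window and no match held 6 that fell and 1 that rose, with a median of -0.22. Since 7 of the 9 are chaperones, the chaperones were also read alone: with the element, 7 of 7 fell (median -0.81), and without a match 4 of 6 fell (median -0.63). Over all genes, 37 had the element and 16 of these were tested, of which 13 fell and 2 rose (median -0.59). With the members left out, 7 tested genes remained, of which 5 fell and 1 rose in the average (median -0.44), 2 fell and 1 rose in wild type (median -0.55), and 1 fell and 1 rose in transgenic mice (median -0.23). The 5 members with the ATF4 response element core held 0 that fell and 1 that rose, Atf3, with a median of -0.15. These counts describe the lists, and no test of enrichment was made. The ER stress element was shown with the LPS changes of the members known, and its part in them was not tested.

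**Figure D5:**
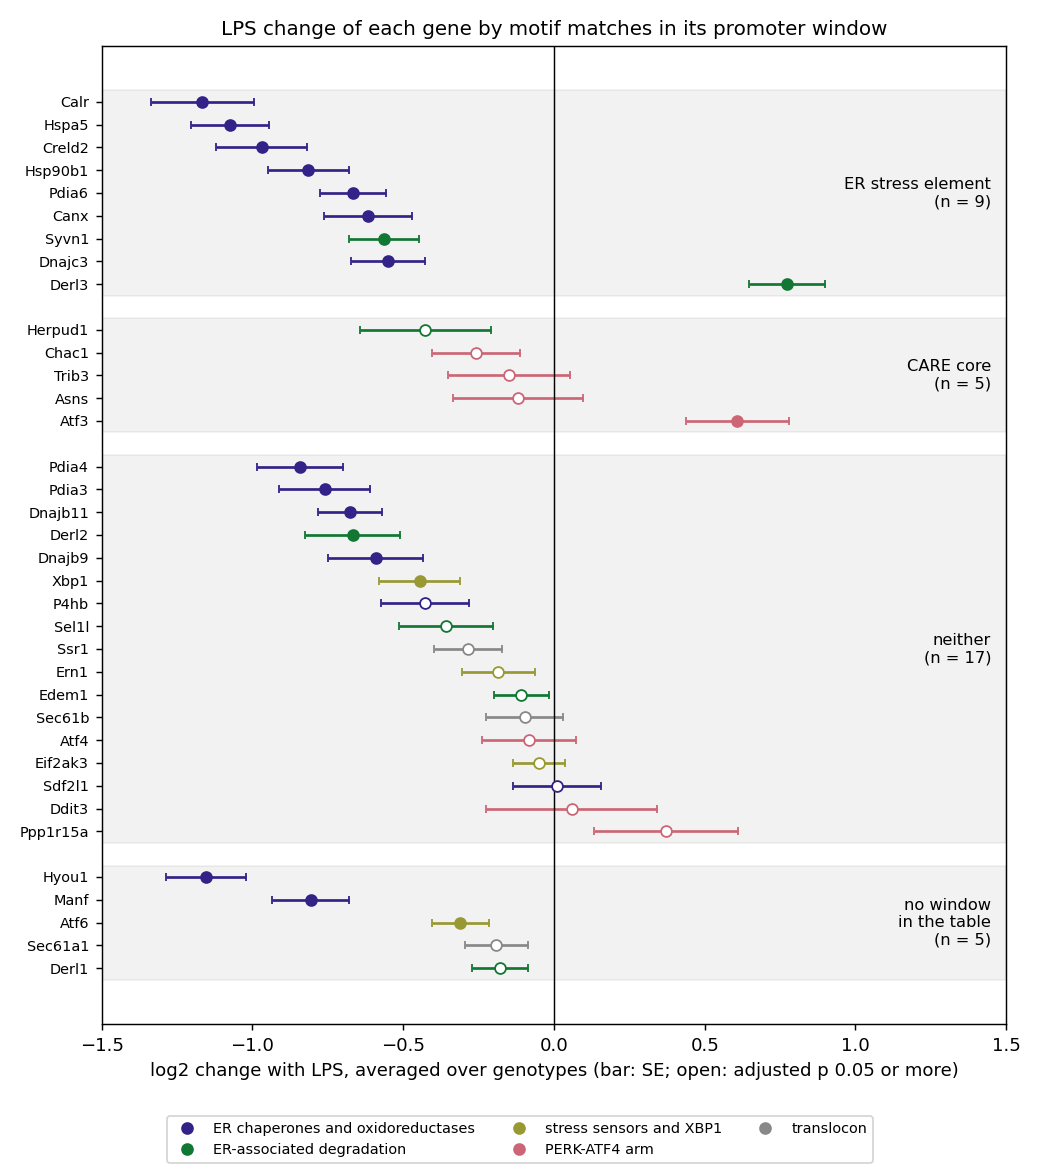
Log2 change with LPS averaged over genotypes, with SE, for each gene, grouped by motif matches in its promoter window and coloured by role. Of the 9 genes with the ER stress element all but Derl3 lie left of 0. Of the genes with the ATF4 response element core, all but Atf3 lie left of 0 as well.

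Other genes of the same pathways were read from lists of non-members, beside the shares of all features. Those that fell were 5.41% in wild type, 10.5% in transgenic mice and 15.8% in the average, and those that rose 16.2%, 16.0% and 20.6%. The differences of the lists from these shares were not tested. Of 19 other ER folding genes tested, 1 rose and 1 fell in wild type, 0 rose and 1 fell in transgenic mice, and 1 rose and 2 fell in the average (median -0.11). The riser was Erp29, an ER protein with a thioredoxin-like fold, at 37.8 and 24.5 FPKM in untreated and 53.2 and 53.4 FPKM in LPS-treated wild-type livers (0.79, adjusted p = 0.0439). Of 18 other degradation genes 4 fell in wild type, 3 in transgenic mice and 5 in the average, with no gene higher (median -0.22). Ubxn4, which brings the segregase p97 to the ER membrane, fell by 0.81 in wild type (adjusted p = 0.00574). Of 27 other genes of ER entry and glycosylation, 1 rose and 1 fell in wild type, 0 rose and 1 fell in transgenic mice, and 1 rose and 6 fell in the average (median -0.17). Of 10 other sensors and eIF2alpha kinases, 0 rose and 1 fell in wild type, 1 rose and 0 fell in transgenic mice, and 1 rose and 2 fell in the average (median -0.12).

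Of 20 other ATF4 and amino acid response genes tested, 2 rose and 1 fell in wild type, 3 rose and 3 fell in transgenic mice, and 4 rose and 5 fell in the average (median -0.24). Of all features 16.2%, 16.0% and 20.6% rose and 5.41%, 10.5% and 15.8% fell in these comparisons. The share of the list that rose in the average was near that background. Ddit4, an inhibitor of mTORC1 signalling, was at 7.98 and 4.52 FPKM in untreated and 295 and 89.3 FPKM in LPS-treated transgenic livers (4.54 ± 0.59, adjusted p = 0.00155), and at 14.0 to 32.5 FPKM in the wild-type libraries, where untreated and LPS values overlapped. Sesn2, a stress-induced regulator of the same pathway, rose by 1.53 in transgenic mice (adjusted p = 0.0171), with LPS values of 24.9 and 10.1 FPKM in replicates 1 and 2. Fgf21, a hormone gene of the fasted liver, fell there from 13.7 and 9.29 FPKM to 0.374 and 2.05 FPKM (-2.59, adjusted p = 0.00181). Slc7a5, an amino acid transporter, rose in wild type (0.93, adjusted p = 0.0147), from 1.14 and 0.648 FPKM to 3.05 and 2.16 FPKM.

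Chaperones outside the ER were read as a comparison, against the 5.41%, 10.5% and 15.8% of all features that fell. Of 17 cytosolic and mitochondrial chaperones tested, 9 fell in wild type, 9 in transgenic mice and 14 in the average, and 0 rose, with medians of -0.62, -0.56 and -0.59. Their summed level was 1232 to 1345 FPKM in untreated and 818 to 827 FPKM in LPS-treated wild-type livers, and 1177 to 1271 FPKM in untreated and 812 to 851 FPKM in LPS-treated transgenic livers. The fall with LPS was therefore not limited to chaperones of the ER, and the median of the ER list was lower by a small margin in each comparison, a difference that was not tested.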

How the data were processed

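The authors deposited 1 table of FPKM values with 1 column per library. Per the submitters' processing notes it was made with TopHat2 2.1.0, Bowtie2 2.2.6, Cufflinks and Cuffdiff 2.2.1 on mm10, the same assembly as GRCm38. Libraries came from a stranded mRNA kit, per the labels. Not given in the sources used here are the gene annotation, the use of strand, filters and any scaling of libraries. Counts were not used here, so the depth is unknown and only 2 libraries a group limit the precision.

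All 8 columns matched a sample. Of 24545 rows, 6197 were 0 in all libraries. For the 492 names that occur more than once the row with the highest sum was kept, 27 names turned into dates stayed unnamed, and names with identical values in all libraries were read as 1 feature.

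Values were transformed as log2(FPKM + 1), and the 11463 features that reached 1 FPKM in 2 or more of 8 libraries were tested. The model, fitted in limma 3.58.1 (R 4.3.3) over all 8 libraries together, had a mean for each group, 4 residual degrees of freedom and trended empirical Bayes moderation, with a median of 3.59 prior degrees of freedom. The threshold of the 2-sided tests was an adjusted p of 0.05, by Benjamini-Hochberg over all features. The script was tested on simulated data. Fold changes are on the log2(FPKM + 1) scale, which understates those of low genes. The p-values weigh a change against the spread between livers within the groups, moderated as stated.

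All 36 members are named. From the other lists of the pathway, pooled, the genes with the 3 largest changes that passed in each LPS comparison are named. Members and lists were chosen with earlier results of these data known. Positions are from GENCODE vM21 and promoter windows from RefSeq on GRCm38.p6. Protein sequences were not used here.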

Additional observations from a re-analysis of the deposited data

How the results depend on the processing

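Each LPS result was recomputed with a pseudocount of 0.1, no filter, a filter of 5 FPKM, libraries scaled to the same sum, quantile normalization, median-of-ratios size factors, a replicate block, moderation without the trend, only the 2 groups compared (not possible for the average), and each library left out. Of the calls in wild type, 3 of 14 were kept in all 8 refits with a library left out and 6 of 14 under all other alternatives. In transgenic mice 1 of 12 and 5 of 12 were, and in the average 12 of 19 and 11 of 19. Derl3 is counted as kept under the other alternatives in wild type and in the average. The filter of 5 FPKM removed it, so it was not tested under that filter. The 2 libraries a group and the unknown depth limit every count. The 0 members that passed for genotype and interaction stayed at 0 in every alternative run.

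In wild type the count lower was 6 when scaled to the same sum and ranged from 2 to 16 with a library left out, and the count higher was 0 under the filter of 5 FPKM, 2 when scaled, and 1 to 2 with a library left out. In transgenic mice the count lower was 6 under quantile normalization and 1 to 15 with a library left out, and the count higher was 0 without a filter, with the filter of 5 FPKM, under quantile normalization and with only the 2 groups compared, and 0 to 2 with a library left out. In the average the count lower was 10 when scaled and 11 to 19 with a library left out, and the count higher was 0 under the filter of 5 FPKM, which removes Derl3 and Atf3, 1 under quantile normalization, and 1 to 3 with a library left out.

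The replicate block gave 15 lower in wild type, 13 lower and 2 higher in transgenic mice, and 17 lower and 2 higher in the average, with Pdia3 and Derl2 added in wild type and Canx, Derl2 and Ppp1r15a in transgenic mice. The labels tie the replicate numbers to no shared animal or day. Deviations of same-numbered libraries correlated at 0.04 to 0.46 over the pairs of groups, so the paired fit is given here only.

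Signs turned in genes that had not passed, and the cause was not tested. Scaled to the same sum, the change was 0.037 for P4hb and 0.016 for Xbp1 in wild type, 0.14 for Herpud1 and 0.10 for Atf6 in transgenic mice, and in the average 0.12 for Edem1, 0.052 for Derl1, 0.023 for Ern1, 0.16 for Eif2ak3, 0.15 for Atf4, 0.057 for Trib3, 0.11 for Asns, 0.043 for Sec61a1 and 0.13 for Sec61b. Under quantile normalization it was 0.072 for P4hb and -0.0052 for Atf3 in wild type, 0.22 for Herpud1 in transgenic mice, and 0.16 for Atf4, -0.084 for Ddit3 and 0.017 for Sec61a1 in the average. With median-of-ratios size factors it was 0.014 for Herpud1 in transgenic mice, and 0.023 for Eif2ak3 and 0.0066 for Atf4 in the average. With a library left out it ranged from -0.49 to 0.014 for Xbp1 in wild type, from -0.54 to 0.37 for Herpud1 in transgenic mice, and in the average from -0.12 to 0.14 for Sdf2l1, -0.23 to 0.059 for Atf4, -0.29 to 0.41 for Ddit3, -0.35 to 0.052 for Trib3 and -0.28 to 0.044 for Asns.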
